A study of Mus musculus with 68 samples.

Results

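Motor neurons derived from mouse embryonic stem cells and induced to express Pou3f1 were compared with motor neurons induced to express YFP, a fluorescent protein that serves as the study's control. The comparison took the arrays labelled Pou3f1 alone and those labelled YFP among cells sorted for a CD14 surface reporter in batch 6, and used 4 of the 68 arrays of the series. There were 2 Pou3f1 arrays and 2 YFP arrays. Another 2 YFP arrays of CD14 cells, from batch 7, were not in this comparison and served to show how far YFP values spread between batches. They also entered the fits of all 68 arrays and an alternative fit that pooled both YFP batches. All groups shared the strain C57/BL6, a stem cell origin, and growth as embryoid bodies without serum. Retinoic acid and a Smoothened agonist, which direct cells to a ventral spinal fate, were added on day 2. On day 5 the cells were dissociated and sorted magnetically for the reporter, and doxycycline then induced the transgene while the sorted cells grew on matrigel for 30 h. The labels call the reporter specific to motor neurons but do not give the promoter that drives it. They do not say whether replicates were separate cultures or whether a line was 1 clone, so the spread behind each p-value is that of these arrays and may be technical. Batch 6 also held 1 array of a line labelled E3 parental, which is given as a value beside the results.

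Pou3f1 (also called Oct6 or SCIP) is a transcription factor whose POU domain and homeodomain together bind octamer sequences in DNA. In the spinal cord it marks a subset of motor neurons, including the phrenic motor neurons of the cervical cord that drive the diaphragm, and outside the cord it is best known for its role in Schwann cells before they myelinate. Motor neurons group into columns and pools by the transcription factors they express, and type II cadherins, a family of calcium-dependent adhesion proteins, take part in sorting the neurons of each pool together.

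Values are log2 expression values for 19938 genes, so a difference of 1 is a 2-fold change, and ± gives the standard error of a limma fit. A gene is written to have risen or fallen where its adjusted p was under 0.05. The 2 Pou3f1 arrays correlated across genes at 0.997, as did the 2 YFP arrays of batch 6, and the array medians ran from 8.15 to 8.19. The standard errors came from 12 CD14 arrays of batch 6, which are 6 lines with 2 arrays each, since 2 arrays against 2 hold little information on the spread. Defining markers of motor neurons were present in both groups, although the motor neuron genes Isl2 and Chat, given below, fell. Isl1, the LIM homeodomain factor of motor neurons, read 12.88 and 12.94 with Pou3f1 and 12.88 and 12.97 with YFP. Slc18a3, the vesicular acetylcholine transporter, read 12.96 and 13.04 with Pou3f1 and 13.06 and 13.24 with YFP (adjusted p = 0.427).

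Pou3f1 itself was examined first. It read 8.76 and 9.07 in the Pou3f1 arrays, 8.45 and 8.48 in the YFP arrays of batch 6, 8.40 and 8.31 in those of batch 7, and 8.49 in the E3 array. Both Pou3f1 arrays therefore lay above all 4 YFP arrays, but the difference of 0.45 ± 0.14 did not pass (adjusted p = 0.150). The other lines of batch 6 that carry Pou3f1 read from 8.86 in Flag;Pou3f1 to 10.33 in Pou3f1;Hoxc6. The sources used here do not say which part of the transcript the transgene carried, and whether the probe set reads it was not tested. In CD2-sorted cells the same probe set read 9.48 with Pou3f1 and 8.67 with YFP in batch 1, 9.51 and 8.41 in batch 2, and 10.14 and 10.70 in the Pou3f1 arrays of batch 4.

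Against this small difference in Pou3f1 itself, 302 of the 19938 genes changed, which is 1.51% of those tested. Of these, 191 rose (0.958%) and 111 fell (0.557%), and 3485 genes were at an unadjusted p under 0.05. At least 2-fold changes were found in 37 of the genes that rose and 13 of those that fell. The values of the Pou3f1 and YFP arrays of batch 6 did not overlap for any of the 302 genes, a feature that 51.9% of all genes shared. For 282 of them both Pou3f1 arrays also lay outside the range of all 4 YFP arrays on the side of the difference, as 30.1% of all genes did. Both Pou3f1 arrays also lay beyond the E3 array for 278 of the 302 genes. The share over all genes was not computed for this count, so it has no background to be read against. The median size of the rises was 0.63 against YFP and 0.37 against the E3 array, and that of the falls was 0.54 and 0.39. These genes were chosen by their difference from the YFP arrays. A smaller gap to a control not used in the choice follows in part from that, so these medians do not place the E3 array. The count depended on how the spread was estimated. It was 39 higher and 13 lower in a fit of the 4 arrays alone, and it fell to 49 higher and 12 lower without YFP replicate 2, to 62 and 17 without Pou3f1 replicate 1, to 59 and 26 without Pou3f1 replicate 2, and to 81 and 30 without YFP replicate 1.

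**Figure D1:**
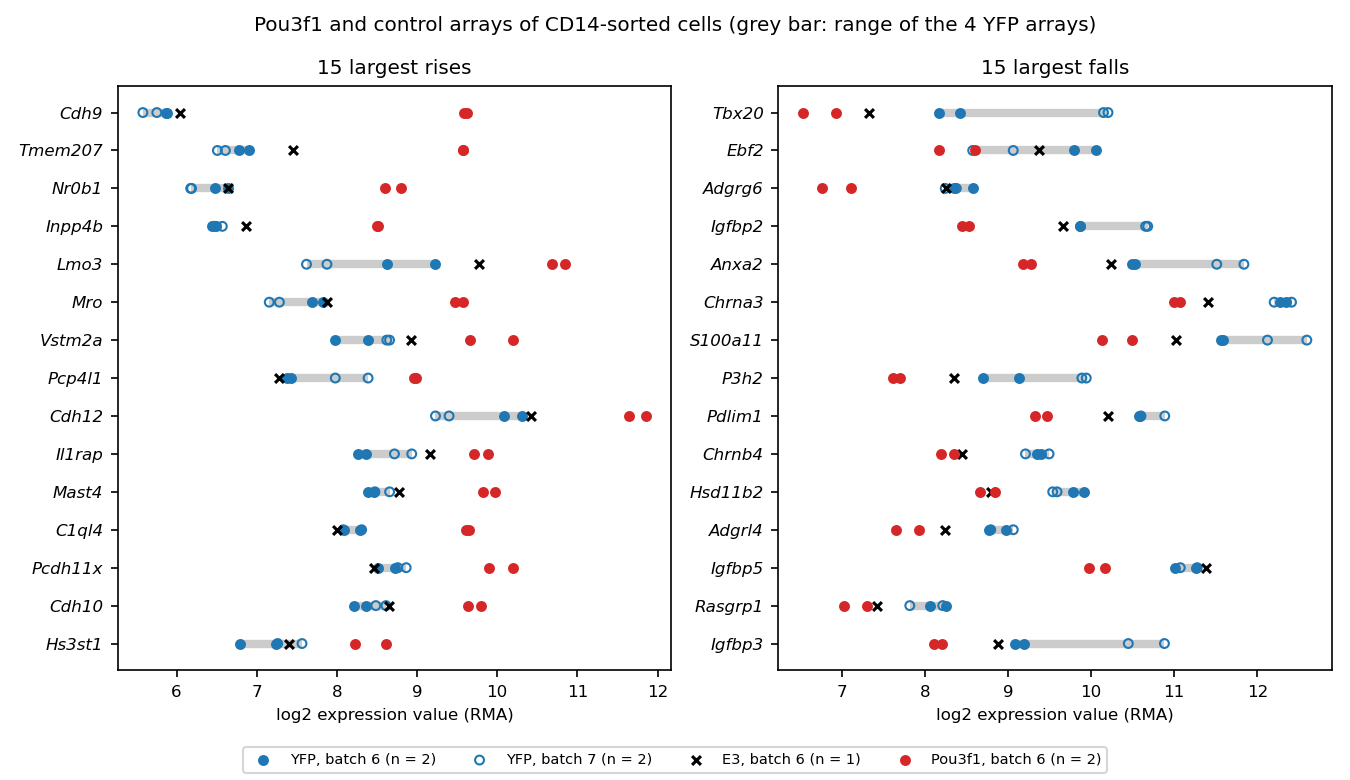
Log2 expression values (horizontal axes) of the 15 largest rises and the 15 largest falls among genes that changed, with 1 point per array: red for Pou3f1 in batch 6, filled blue for YFP in batch 6, open blue for YFP in batch 7 and a cross for the E3 array. The grey bar spans the 4 YFP arrays. The red points stand apart from it for every gene shown except Ebf2, while the E3 array often lies between the groups, as for Tmem207 at 7.46 and Lmo3 at 9.77.

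Cdh9, a type II cadherin, had the largest rise, and Cdh12 and Cdh10 of the same family were among the 15 largest. Cdh9 read 9.58 and 9.62 with Pou3f1, 5.86 and 5.87 with YFP in batch 6, 5.75 and 5.58 with YFP in batch 7, and 6.04 in the E3 array. All 4 YFP arrays and the E3 array lay far below the Pou3f1 arrays, and the rise was 13.3-fold, a difference of 3.73 ± 0.49 (adjusted p = 0.00676). The Pou3f1 arrays agreed closely, but replicates of other lines, which enter the shared standard error, did not. The Flag;Pou3f1 arrays read Cdh9 at 7.80 and 9.60 and the Pou3f1;Hoxa5 arrays at 9.63 and 10.69. Cdh9 missed the threshold when any 1 of the 4 arrays was left out, with an adjusted p of up to 0.0684, although the difference stayed between 3.71 and 3.75.

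Cdh12, another type II cadherin, read 11.65 and 11.86 with Pou3f1, 10.31 and 10.08 with YFP in batch 6, 9.23 and 9.40 with YFP in batch 7, and 10.42 in the E3 array. The groups did not overlap, and it rose by 1.56 ± 0.10 (adjusted p = 0.000104). It did not pass when all 68 arrays were fitted with batch terms (adjusted p = 0.134). Cdh10, which is expressed with Cdh9 in phrenic motor neurons, read 9.63 and 9.80 with Pou3f1 and 8.22 and 8.37 with YFP, and the highest of the 4 YFP arrays was at 8.61. It rose by 1.42 ± 0.18 (adjusted p = 0.00575), and missed the threshold without Pou3f1 replicate 2 (adjusted p = 0.0536) or without YFP replicate 1 (0.0509). Cdh7 rose by 0.76 ± 0.08, from 6.14 and 6.31 to 7.02 and 6.95 (adjusted p = 0.00142). It did not pass with batch terms over 68 arrays (adjusted p = 0.392), with the spread of all same-batch replicates (0.131) or in the fit of the 4 arrays alone (0.0670).

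The rest of the family did not pass. Cdh6, a cadherin of several motor pools, read 11.91 and 11.96 with Pou3f1 and 12.07 and 12.09 with YFP, a difference of -0.15 ± 0.12 (adjusted p = 0.583). Cdh18 differed by -0.05 ± 0.14. In all, 4 of the 13 type II cadherins measured rose and 0 fell (30.8%, against 1.51% of all genes), with a median difference of 0.09 against -0.01 over all genes, and 2 of them passed without Pou3f1 replicate 2 or YFP replicate 1 and 3 without either of the others. Of 17 type I and other cadherins, 0 passed. With 1.51% of all genes passing, 0 of 17 is near that share, so it is no contrast with the type II cadherins.

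Protocadherins of the delta group, a separate branch of the superfamily, had 3 of 10 members higher and 0 lower (30%, against 1.51% of all genes). Their median difference was 0.06. Pcdh11x read 9.90 and 10.20 with Pou3f1 against 8.51 and 8.72 with YFP, a rise of 1.43 ± 0.17 (adjusted p = 0.00325). Pcdh19 read 8.88 and 9.20 against 7.74 and 7.68, a rise of 1.33 ± 0.15 (adjusted p = 0.00303), but the E3 array was at 8.49, closer to Pou3f1 than to YFP. Pcdh10, a marker of phrenic motor neurons, read 10.67 and 10.61 against 9.85 and 9.92, a rise of 0.75 ± 0.07 (adjusted p = 0.00108). In none of these genes did the Pou3f1 arrays overlap the 4 YFP arrays, and all 3 passed without any 1 array. Fitted with batch terms over 68 arrays, only Pcdh19 of the 3 passed. Adhesion genes of the immunoglobulin class (29 measured) had 0 that passed, which is near the 1.51% of all genes. They include Alcam at 0.07 ± 0.13 and Negr1 at 0.50 ± 0.11 (adjusted p = 0.0523). Among 12 catenins and other cadherin partners, Pkp4, a catenin-like protein of cell junctions, fell by 0.57 ± 0.07 (adjusted p = 0.00368), and the other 11 did not pass. The share that passed was 8.33%, against 1.51% of all genes.

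The genes Cdh9, Cdh10 and Cdh12 follow each other on chromosome 15 among the genes tested, and Tmem207, the second largest rise, lies on chromosome 16. The promoters of these genes, from 250 bases before to 50 bases after the start in RefSeq (GRCm38.p6), are shown because they are the places where an octamer could lie next to the genes that rose most. They are at chr15:16728665-16728964 (plus strand) for Cdh9, chr15:18820079-18820378 (plus strand) for Cdh10, chr15:21111202-21111501 (plus strand) for Cdh12 and chr16:26526722-26527021 (minus strand) for Tmem207. Capitals mark ATGCA on either strand (ATGCA or TGCAT), the letters that begin the octamer, and ATGCAT holds it on both strands.
Cdh9: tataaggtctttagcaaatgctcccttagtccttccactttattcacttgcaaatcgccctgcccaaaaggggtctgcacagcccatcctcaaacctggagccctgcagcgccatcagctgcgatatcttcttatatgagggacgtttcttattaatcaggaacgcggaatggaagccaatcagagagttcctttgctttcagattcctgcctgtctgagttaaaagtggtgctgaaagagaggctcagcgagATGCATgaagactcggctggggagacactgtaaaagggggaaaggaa
Cdh10: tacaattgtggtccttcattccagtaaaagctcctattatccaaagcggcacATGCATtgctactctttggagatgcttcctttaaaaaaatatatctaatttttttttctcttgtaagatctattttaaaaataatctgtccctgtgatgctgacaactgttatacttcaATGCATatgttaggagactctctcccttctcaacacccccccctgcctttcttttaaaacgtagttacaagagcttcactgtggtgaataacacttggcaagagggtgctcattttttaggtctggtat
Cdh12: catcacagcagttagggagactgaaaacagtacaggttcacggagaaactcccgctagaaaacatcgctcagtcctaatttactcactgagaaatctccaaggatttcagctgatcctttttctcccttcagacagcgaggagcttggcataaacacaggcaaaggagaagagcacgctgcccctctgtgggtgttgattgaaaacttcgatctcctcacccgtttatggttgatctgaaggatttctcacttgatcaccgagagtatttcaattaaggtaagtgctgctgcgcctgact
Tmem207: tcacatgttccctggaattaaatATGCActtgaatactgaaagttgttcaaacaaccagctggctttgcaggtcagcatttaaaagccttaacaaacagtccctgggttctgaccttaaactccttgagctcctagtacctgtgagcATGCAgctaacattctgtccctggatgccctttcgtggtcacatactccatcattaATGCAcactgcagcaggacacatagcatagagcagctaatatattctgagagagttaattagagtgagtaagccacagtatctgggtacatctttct

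None of these 4 stretches held the full octamer ATGCAAAT on either strand (ATGCAAAT or ATTTGCAT), and that of Cdh12 did not hold ATGCA either. Over the genes that rose, 1 of 198 promoters held the octamer (0.505%), and over those that fell 1 of 108 (0.926%), against 1.60% of the 19177 promoters of all genes tested. ATGCA, which is part of the octamer and was searched after the result for the octamer was known, was in 29.8% of the promoters of genes that rose, in 28.7% of those of genes that fell and in 28.1% of those of all genes tested. The octamer was therefore not more common in these windows than over all genes, which says nothing about sites elsewhere or about other sequences.

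Outside the cadherins, Tmem207, which encodes a membrane protein, read 9.57 and 9.58 with Pou3f1, 6.91 and 6.78 with YFP in batch 6, 6.61 and 6.51 with YFP in batch 7, and 7.46 in the E3 array. The groups stood far apart, and the rise of 2.73 ± 0.10 was 6.64-fold (adjusted p = 2.24e-06). Nr0b1, a nuclear receptor that represses steroid genes and is better known from the adrenal gland and embryonic stem cells, read 8.80 and 8.60 against 6.64 and 6.48, with 6.19 and 6.18 in batch 7. It rose 4.41-fold (2.14 ± 0.13, adjusted p = 9.16e-05). Inpp4b, a phosphatase of phosphoinositide lipids, read 8.51 and 8.50 against 6.45 and 6.50 and rose 4.10-fold (2.04 ± 0.20, adjusted p = 0.00133). All 3 genes passed without any 1 of the 4 arrays.

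The remaining large rises ran from 1.41 to 1.84. Lmo3, a LIM-only partner of transcription factors, read 10.84 and 10.69 against 9.23 and 8.63, with 7.88 and 7.62 in the YFP arrays of batch 7 and 9.77 in the E3 array. Its levels thus spread widely among the controls, yet both Pou3f1 arrays were above every one of them (1.84 ± 0.17, adjusted p = 0.00108). Mro rose by 1.76 ± 0.16, Vstm2a by 1.75 ± 0.20 and Pcp4l1, a small protein related to Purkinje cell protein 4, by 1.57 ± 0.16. Il1rap, the accessory chain of the interleukin-1 receptor and a synaptic adhesion protein, rose by 1.49 ± 0.14, the kinase gene Mast4 by 1.47 ± 0.08, and C1ql4, a secreted C1q-like protein, by 1.44 ± 0.15 (adjusted p for these 6 genes from 6.31e-05 to 0.00322). Each passed without any 1 array, whereas Hs3st1, a heparan sulphate sulphotransferase, rose by 1.41 ± 0.27 (adjusted p = 0.0384) and did not pass without any 1 of the 4 arrays (adjusted p up to 0.203).

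A broad list of motor column and pool factors had members that changed in both directions. Of 24 measured, 5 were higher and 3 lower (33.3%, against 1.51% of all genes). Fewer of the 24 passed when any 1 of the 4 arrays was left out. The list also held genes described here by other roles, such as Nr0b1, Nkx6-2, Ebf2, Eya1 and Zeb2. Its share is therefore not that of factors that set columns and pools. Foxp1, the factor of limb-innervating and preganglionic motor columns, read 11.31 and 11.30 with Pou3f1, 10.33 and 10.26 with YFP and 10.60 in the E3 array. It rose 2.01-fold (1.01 ± 0.08, adjusted p = 0.000548) and passed without any 1 array. Tshz1, a zinc finger factor of phrenic and other motor neurons, rose by 0.46 ± 0.08 (adjusted p = 0.0212). Esrrg, an orphan nuclear receptor of gamma motor neurons, rose by 1.00 ± 0.16 (adjusted p = 0.0173), but the E3 array read 9.94 against 10.15 and 10.04 with Pou3f1. Nkx6-2, a homeodomain factor of ventral progenitors, was the other gene of this list that rose beside Nr0b1 (0.84 ± 0.16, adjusted p = 0.0338), and did not pass without any 1 of the 4 arrays (adjusted p up to 0.155).

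Among the factors that fell, Eya1, a transcriptional coactivator of developing organs, read 10.96 and 11.12 with Pou3f1 against 11.93 and 12.03 with YFP (-0.94 ± 0.09, adjusted p = 0.00142), and passed without any 1 array but not with batch terms over 68 arrays (adjusted p = 0.579). Zeb2, a zinc finger repressor, fell by 0.51 ± 0.09 (adjusted p = 0.0222) and did not pass without any 1 of the 4 arrays (adjusted p up to 0.143). Ebf2, a helix-loop-helix factor of differentiating neurons, read 8.16 and 8.60 against 9.80 and 10.06 (-1.55 ± 0.23, adjusted p = 0.0129), but 1 YFP array of batch 7 was at 8.57, inside the Pou3f1 values. Ebf2 did not pass without Pou3f1 replicate 1 (adjusted p = 0.0813), YFP replicate 1 (0.0510) or YFP replicate 2 (0.118). Esrrg and Tshz1 did not pass without Pou3f1 replicate 1, Pou3f1 replicate 2 or YFP replicate 2 (adjusted p up to 0.143 and 0.164).

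The list of general motor neuron genes had 0 of 16 higher and 2 lower (12.5%, against 1.51% of all genes). Its median difference was 0.01. Some of its members, such as neurofilament genes, are not confined to motor neurons. Isl2, a LIM homeodomain factor, read 12.03 and 12.12 with Pou3f1 and 12.50 and 12.59 with YFP, below all 4 YFP arrays (-0.47 ± 0.08, adjusted p = 0.0182). Chat, the acetylcholine-synthesizing enzyme, read 9.52 and 9.60 against 9.96 and 10.01 (-0.43 ± 0.08, adjusted p = 0.0384). Neither passed when any 1 array was left out (adjusted p up to 0.146 for Isl2 and 0.218 for Chat). Isl1 differed by -0.02 ± 0.07, Mnx1, another motor neuron homeodomain factor, by -0.29 ± 0.08 (adjusted p = 0.132) and Lhx3 by 0.34 ± 0.12 (adjusted p = 0.198).

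The list of phrenic motor neuron genes, which overlaps the cadherins and includes Pou3f1 itself, had 4 of 12 members higher (Cdh9, Cdh10, Pcdh10 and Tshz1) and 0 lower. That is 33.3%, against 1.51% of all genes, and the median difference was 0.46, against -0.01 over all genes. This list, like the others, was chosen with earlier results of these data known, so its share and median are not independent support. It held 1 passing gene without Pou3f1 replicate 2, 2 without Pou3f1 replicate 1 or YFP replicate 2, and 3 without YFP replicate 1. Short of the threshold were Ptn, which encodes the growth factor pleiotrophin, at 0.42 ± 0.10 (adjusted p = 0.0758), and Hoxa5, a Hox factor of the cervical cord, at 0.52 ± 0.13 (adjusted p = 0.0914). Hoxa5 read 9.93 and 9.79 with Pou3f1 and 9.58 and 9.10 with YFP, and passed without YFP replicate 1, the higher of these (adjusted p = 0.0162). Of 14 Hox genes of paralogues 1 to 5 and 11 of paralogues 6 to 9, 0 passed, with medians of -0.20 and -0.15. With 1.51% of all genes passing, 0 in lists of this size is near that share and says little about Hox genes.

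POU-domain genes other than Pou3f1 were examined for change as well. The relatives Pou3f2, Pou3f3 and Pou3f4 differed by -0.13 ± 0.08, 0.11 ± 0.07 and 0.30 ± 0.12 (adjusted p = 0.449, 0.423 and 0.242). Pou2f2 (Oct2), which also binds octamers, read 9.84 and 9.76 against 9.01 and 8.52, a rise of 1.03 ± 0.20 (adjusted p = 0.0344). It was the only gene that passed among 10 POU genes (10%, against 1.51% of all genes). Without Pou3f1 replicate 1, Pou3f1 replicate 2 or YFP replicate 2 it did not pass (adjusted p up to 0.217).

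**Figure D2:**
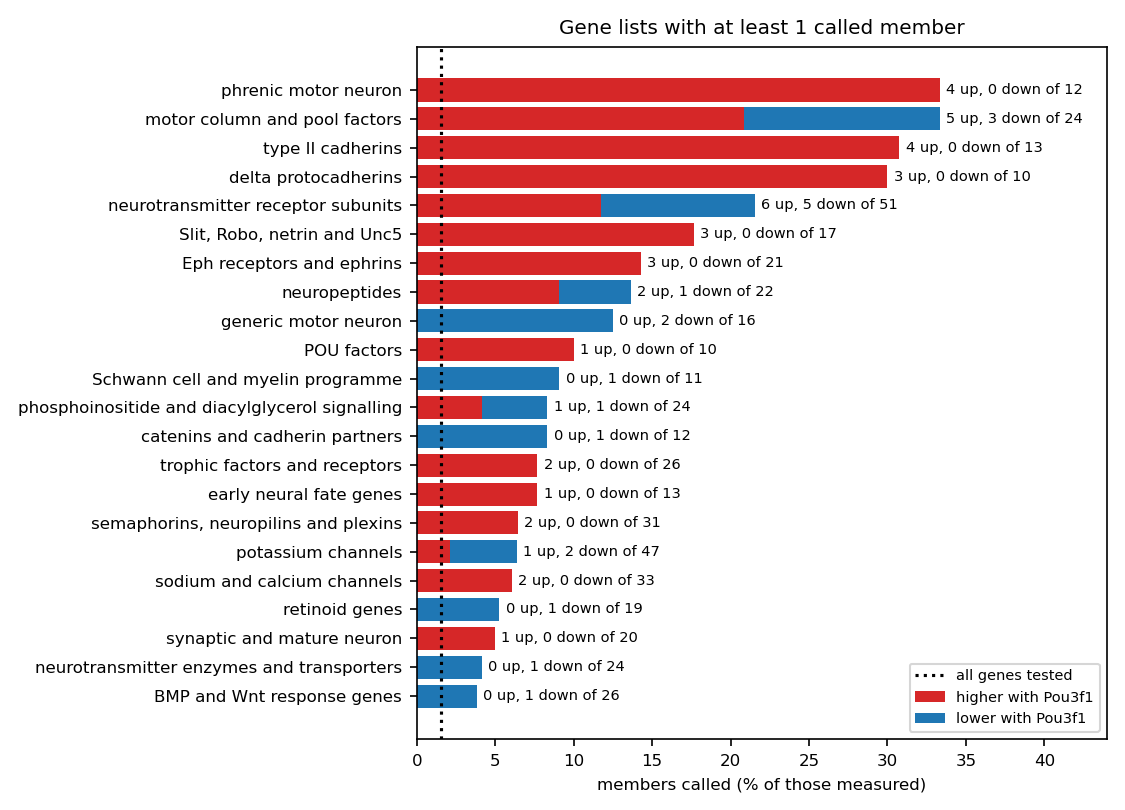
Share of measured members that passed (horizontal axis, percent), for each of the 22 gene lists with at least 1 member that passed. Red marks higher with Pou3f1, blue marks lower, and the dotted line is the share over all genes tested, 1.51%. The phrenic and column lists have the longest bars, at 33.3% each, and the column and neurotransmitter receptor lists hold both colours.

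Receptors and ligands of axon guidance rose wherever they passed. The share that passed was 14.3% of Eph receptors and ephrins and 17.6% of the Slit, Robo, netrin and Unc5 group. It was 6.45% of semaphorins, neuropilins and plexins, against 1.51% of all genes. Epha5, an Eph receptor tyrosine kinase that binds ephrins of the A class, read 8.87 in both Pou3f1 arrays against 7.70 and 7.53 (1.26 ± 0.13, adjusted p = 0.00160). Robo1, the receptor for Slit proteins, read 11.90 and 11.98 against 11.13 and 11.15 (0.80 ± 0.07, adjusted p = 0.00108). The groups did not overlap for either gene, and both passed without any 1 array. Of 21 Eph receptors and ephrins 3 rose, with Ephb3 at 0.53 ± 0.08 and the ligand Efnb2 at 0.49 ± 0.08. Of 17 genes of the Slit, Robo, netrin and Unc5 group 3 rose, with Unc5d, a netrin receptor, at 0.98 ± 0.14 and Ntng1, a membrane-anchored netrin relative, at 0.53 ± 0.09, although another probe set of Ntng1 was at 0.03 (adjusted p = 0.916). Of 31 semaphorins, neuropilins and plexins 2 rose, the receptor Plxnc1 by 0.91 ± 0.13 and the ligand Sema5a by 0.91 ± 0.19. Among these 6 genes the adjusted p ran from 0.00904 to 0.0494, each failed to pass without at least 2 of the 4 arrays in turn (adjusted p up to 0.267), and Sema5a read 9.42 in the E3 array against 9.65 and 9.47 with Pou3f1.

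Of the trophic factors and receptors measured 7.69% changed, and of the neuropeptide genes 13.6%, against 1.51% of all genes. The neurotrophin receptor gene Ntrk2, which encodes TrkB, rose by 0.68 ± 0.07 (adjusted p = 0.00248), and Alk, a receptor tyrosine kinase, rose by 0.89 ± 0.14 (adjusted p = 0.0146), 2 of 26 trophic factors and receptors. Gal, the precursor of the peptide galanin, read 8.15 and 8.56 against 9.42 and 9.18 and fell by 0.94 ± 0.15 (adjusted p = 0.0158). The secretogranin gene Scg2 rose by 0.72 ± 0.12 and Nxph1, a neurexin ligand, by 0.94 ± 0.16, so 2 of 22 neuropeptide genes rose and 1 fell. Of these 5 genes, Ntrk2 passed without any 1 array but not with batch terms over 68 arrays (adjusted p = 0.122), Alk and Nxph1 did not pass without any 1 of the 4 (adjusted p up to 0.143), Gal passed only without Pou3f1 replicate 2, and Scg2 only without YFP replicate 1. Sst, which encodes somatostatin, was lower in both Pou3f1 arrays, at 12.68 and 12.60 against 13.56 and 13.63, but did not pass (-0.95 ± 0.41, adjusted p = 0.274).

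Subunits of neurotransmitter receptors changed in both directions, with 6 of 51 higher and 5 lower (21.6%, against 1.51% of all genes). Fewer of the 51 passed when any 1 of the 4 arrays was left out. Gabra2, a subunit of the GABA-A receptor, read 8.21 and 8.45 with Pou3f1 and 7.32 and 7.10 with YFP, a rise of 1.12 ± 0.10 (adjusted p = 0.00108). Grik1, a kainate receptor subunit, read 8.02 and 8.18 against 6.99 and 7.09, a rise of 1.06 ± 0.13 (adjusted p = 0.00368). Both were above all 4 YFP arrays. The other rises were Grik2 at 0.76 ± 0.09, Htr2a, a serotonin receptor, at 0.94 ± 0.15, Gabrg3 at 0.57 ± 0.12 and Grin2b, an NMDA receptor subunit, at 0.50 ± 0.09, although Grin2b read 9.73 in the E3 array, above both Pou3f1 arrays. The NMDA receptor genes Grin2a and Grin2c fell by 0.66 ± 0.12 and 0.48 ± 0.09. Gabra2, Grik1 and Grik2 passed without any 1 array, although Gabra2 did not with batch terms over 68 arrays (adjusted p = 0.165). Htr2a, Gabrg3, Grin2b, Grin2a and Grin2c did not pass without any 1 of the 4 (adjusted p up to 0.200).

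The nicotinic acetylcholine receptor subunits Chrna3, Chrna5 and Chrnb4, which together form receptors of autonomic and some central neurons, fell together. Chrna3 read 10.99 and 11.07 with Pou3f1, 12.28 and 12.35 with YFP in batch 6, and 12.20 to 12.41 over the 4 YFP arrays. It fell by 1.28 ± 0.15, or 2.42-fold (adjusted p = 0.00368). Chrnb4 read 8.19 and 8.35 against 9.35 and 9.40 (-1.10 ± 0.11, adjusted p = 0.00175), and Chrna5 read 8.85 and 9.11 against 9.71 and 10.15 (-0.95 ± 0.15, adjusted p = 0.0181). Chrna3 and Chrnb4 passed without any 1 array, and Chrna5 did not without Pou3f1 replicate 1, Pou3f1 replicate 2 or YFP replicate 2 (adjusted p up to 0.126). The E3 array lay far from YFP for all 3 genes, at 11.40 for Chrna3, 8.44 for Chrnb4 and 8.96 for Chrna5, which is within the Pou3f1 values for Chrna5. When that array was counted as a control, an alternative chosen after seeing the data, none of the 3 passed (adjusted p = 0.0972, 0.147 and 0.274), nor did they with batch terms over 68 arrays (0.264, 0.385 and 0.421).

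Other genes that fell were led by Tbx20, a T-box factor of hindbrain and other cranial motor neurons, which read 6.54 and 6.92 with Pou3f1 and 8.17 and 8.42 with YFP. It fell by 1.56 ± 0.19 (adjusted p = 0.00432) and missed the threshold without YFP replicate 2 (adjusted p = 0.0599). Its level differed among the controls, up to 10.20 in batch 7 and down to 7.33 in the E3 array, and the Pou3f1 arrays were below all of them. Crabp1, which binds retinoic acid in the cell, was the 1 of 19 retinoid genes that passed (5.26%, against 1.51% of all genes). It differed by -0.96 ± 0.16 (adjusted p = 0.0208), and its E3 value of 12.22 lay between the Pou3f1 values of 12.20 and 12.42. The steroid enzyme Hsd11b2 fell by 1.09 ± 0.17 (adjusted p = 0.0170), also with the E3 array, at 8.79, between the Pou3f1 arrays at 8.66 and 8.84. Neither Crabp1 nor Hsd11b2 passed without any 1 of the 4 arrays (adjusted p up to 0.163 and 0.100). With the E3 array as a control, Tbx20, Crabp1 and Hsd11b2 did not pass (adjusted p = 0.0656, 0.320 and 0.246).

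Igfbp2, Igfbp5 and Igfbp3, which encode proteins that bind insulin-like growth factors outside the cell, were among the 15 largest falls. Igfbp2 read 8.53 and 8.45 with Pou3f1, 9.87 and 9.86 with YFP in batch 6, 10.66 and 10.68 in batch 7, and 9.66 in the E3 array. It fell by 1.38 ± 0.12 (adjusted p = 0.00108). Igfbp5 read 9.98 and 10.17 against 11.27 and 11.01, with 11.39 in the E3 array, and fell by 1.07 ± 0.14 (adjusted p = 0.00643). Igfbp3 read 8.11 and 8.20 against 9.19 and 9.09 and fell by 0.99 ± 0.09 (adjusted p = 0.00108). The controls lay above the Pou3f1 arrays for all 3, in both YFP batches and in the E3 array. Igfbp6, Igfbp7, Igfbp4 and Igfbp1 differed by -0.25, -0.20, -0.13 and -0.09 and did not pass. Igfbp2 and Igfbp3 passed without any 1 array, and Igfbp5 did not without Pou3f1 replicate 1 (adjusted p = 0.0594) or YFP replicate 1 (0.0541). With batch terms over 68 arrays none of Igfbp2, Igfbp3 and Igfbp5 passed (adjusted p = 0.0671, 0.652 and 0.231), and Igfbp3 did not with the spread of all same-batch replicates (0.0794) or with both YFP batches pooled (0.0527).

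The other large falls had different roles. The calcium-dependent membrane-binding protein gene Anxa2 read 9.18 and 9.28 against 10.53 and 10.49 (-1.28 ± 0.21, adjusted p = 0.0182), and S100a11, a partner of annexins, read 10.13 and 10.49 against 11.57 and 11.59 (-1.27 ± 0.23, adjusted p = 0.0275). Pdlim1, a PDZ and LIM protein of actin filaments, fell by 1.18 ± 0.15, and the adhesion G protein-coupled receptors Adgrg6 and Adgrl4 fell by 1.53 ± 0.27 and 1.09 ± 0.15 (adjusted p from 0.00611 to 0.0246). Rasgrp1, which couples diacylglycerol to Ras, fell by 0.99 ± 0.12 (adjusted p = 0.00368). Of these 6 genes, Rasgrp1 passed without any 1 array but not with the E3 array as a control (adjusted p = 0.106), Anxa2, S100a11 and Adgrg6 did not pass without any of the 4 (adjusted p up to 0.164), Pdlim1 did not without Pou3f1 replicate 1 or YFP replicate 2 (adjusted p up to 0.0644), and Adgrl4 did not without Pou3f1 replicate 2 or YFP replicate 2 (up to 0.0985).

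Markers of cell types other than motor neurons did not pass in any of the lists examined. With 1.51% of all genes passing, 0 in a list of 9 to 17 genes is near that share and says little about such cells. Of 14 markers of mesoderm, endothelium and fibroblasts 0 passed, with a median difference of -0.15, and their mean read 7.29 and 7.31 with Pou3f1, 7.47 and 7.64 with YFP in batch 6, 8.01 and 8.16 in batch 7, and 7.47 in the E3 array. Acta2, smooth muscle actin, read 10.11 and 10.95 against 11.92 and 12.46 (-1.66 ± 0.58, adjusted p = 0.195). This was the largest negative difference of all genes tested, although it did not pass. Of 13 epithelial and endoderm markers 0 passed, and their mean read 7.10 and 7.23 with Pou3f1, 7.25 and 7.35 with YFP in batch 6, and 7.96 and 8.33 in batch 7. The part of such cells in the falls was not tested, and in bulk RNA fewer cells of a type and less RNA per cell cannot be told apart. The endothelial genes Cdh5 and Pecam1 differed by 0.05 ± 0.10 and -0.16 ± 0.12. Of the lists for neural progenitors (17 genes), ventral interneurons (16), dorsal interneurons and sensory neurons (12), neural crest (11), oligodendrocytes and astrocytes (9), pluripotency (12), cell cycle (17) and stress (14), 0 genes passed. The median differences of these 8 lists ran from -0.17 to 0.04, and that of 51 small nucleolar RNA genes was -0.15.

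Other lists that bear on known roles of Pou3f1 had 1 or 0 passing members. In these lists 1 member is 3.85% to 9.09% of those measured, against 1.51% of all genes. From 11 genes of the Schwann cell and myelin programme only Mag, myelin-associated glycoprotein, passed (-0.43 ± 0.08, adjusted p = 0.0334), with its E3 value at 7.29 above all YFP arrays. From 13 early neural fate genes Zfp521, a zinc finger factor of neural differentiation, rose by 0.46 ± 0.07 (adjusted p = 0.0129). Among 26 BMP and Wnt response genes Smad9 fell by 0.59 ± 0.10 (adjusted p = 0.0191), and among 16 Notch targets 0 passed. From 20 synaptic and mature neuron genes Nlgn1, a postsynaptic adhesion protein, rose by 0.51 ± 0.08 (adjusted p = 0.0156). None of Mag, Zfp521 and Nlgn1 passed when any 1 of the 4 arrays was left out (adjusted p up to 0.201), and Smad9 passed only without Pou3f1 replicate 2 (up to 0.152 otherwise).

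Ion channels changed in both directions. The share that passed was 6.38% of potassium channel genes and 6.06% of sodium and calcium channel genes, against 1.51% of all genes. Of 47 potassium channel genes, Kcnk9, a leak channel, rose by 0.50 ± 0.08 (adjusted p = 0.0202), while Kcnj2, an inward rectifier, and Kcnip4, a channel-interacting protein, fell by 0.88 ± 0.18 and 0.72 ± 0.10 (adjusted p = 0.0434 and 0.00710). Of 33 sodium and calcium channel genes, the auxiliary subunits Cacna2d2 and Cacng5 rose by 0.68 ± 0.09 and 0.93 ± 0.18 (adjusted p = 0.00621 and 0.0409). The E3 array read Kcnk9 at 11.64 and Kcnip4 at 7.04, nearer to the Pou3f1 arrays than to YFP. Without any 1 of the 4 arrays neither Kcnk9, Kcnj2 nor Cacng5 passed (adjusted p up to 0.253), and Kcnip4 and Cacna2d2 did not without Pou3f1 replicate 1 or YFP replicate 2 (up to 0.0776).

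Some genes that changed lay side by side in the genome, a pattern examined after the values had been seen. Of 301 changed genes placed on GRCm38.p6, 23 (7.64%) had an adjacent tested gene that changed in the same direction. With either direction counted the share was 8.97%, against 2.94% of all 19919 placed genes. There were 10 such runs, 8 higher and 2 lower, and 3 of them held 3 genes each. The first was Cdh9, Cdh10 and Cdh12 on chromosome 15, between Cdh6 and Acot10, neither of which passed, and Cdh18 beyond Acot10 did not either. The second, on chromosome 16, was Tmem207, Il1rap and Gmnc, a regulator of multiciliated cells, which rose by 0.63 ± 0.11 (adjusted p = 0.0212). Cldn1, a tight junction claudin on the other side of Tmem207, rose by 1.17 ± 0.09 (adjusted p = 0.000584), its neighbour P3h2, a collagen-modifying enzyme, fell by 1.26 ± 0.24 (adjusted p = 0.0336), and Cldn16 between Cldn1 and Tmem207 was at -0.28 ± 0.10 (adjusted p = 0.217). Gmnc and P3h2 did not pass without any 1 of the 4 arrays (adjusted p up to 0.165). The third was Chrna5, Chrna3 and Chrnb4 on chromosome 9, where Chrna5 and Chrna3 overlap by 1304 bases in RefSeq, so their probe sets may not be independent. Igfbp2 and Igfbp5 on chromosome 1 formed the other run of lower genes. Whether neighbours change together more often than gene families alone would give was not tested.

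**Figure D3:**
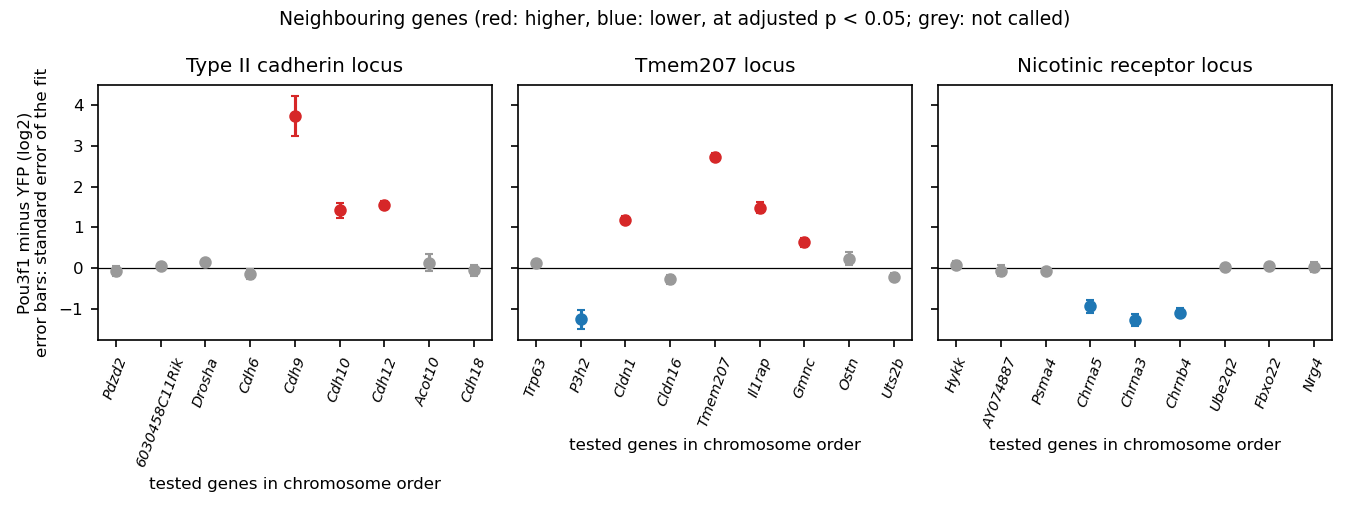
Pou3f1 minus YFP (vertical axis, log2, with the standard error of the fit as bars) for tested genes in chromosome order (horizontal axis, 1 position per gene) around Cdh9, Tmem207 and Chrna3. Red points rose, blue points fell and grey points did not pass. Cdh9, Cdh10 and Cdh12 rise between neighbours near 0, and Chrna5, Chrna3 and Chrnb4 fall between neighbours near 0.

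CD2-sorted cells, which carry another reporter, gave the same contrast in batches 1 and 2 with 1 Pou3f1 and 1 YFP array in each, and share no array with the CD14 cells. Among the 191 genes that rose in CD14 cells, 163 (85.3%) were higher with Pou3f1 in both CD2 batches, against 31.3% of all genes. Among the 111 that fell, 76 (68.5%) were lower in both, against 24.1%. For Cdh9 the CD2 differences were 5.48 and 5.39, for Inpp4b 2.71 and 2.67, for Cdh10 2.38 and 2.26 and for Tmem207 2.14 and 2.29. They were thus above the CD14 difference for Cdh9, Inpp4b and Cdh10 and below it for Tmem207, but none of these 4 genes passed the test of the difference between the effects (adjusted p = 0.241, 0.496, 0.241 and 0.568). The falls of Chrna3 and Chrnb4 were smaller in CD2 cells, at -0.54 and -0.24 and at -0.38 and -0.19, and this did not pass either (adjusted p = 0.374 and 0.448).

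The difference between the CD14 and CD2 effects (CD14 minus CD2) passed for 6 genes (0.0301% of those tested, with 1946 at an unadjusted p under 0.05). It was 1.65 for Nr0b1 (adjusted p = 0.0261), whose CD2 differences were 0.10 and 0.88 against 2.14 in CD14 cells. Pou3f4 differed by 1.01 (adjusted p = 0.00717), with CD2 differences of -0.84 and -0.58 and 0.30 in CD14 cells. The other 4, named because they passed and not by the naming rule, were Prox1, Wdr43, Zfp947 and Elfn2, and Elfn2 was the 1 gene whose effect was lower in CD14 cells. Reporter and batch differ together here, so their parts cannot be told apart. No more than 1 gene passed in either direction when 1 of the 4 CD14 arrays was left out, and Nr0b1 then had an adjusted p from 0.106 to 0.264. The lone CD2 arrays were assumed to vary like the replicates of other groups.

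**Figure D4:**
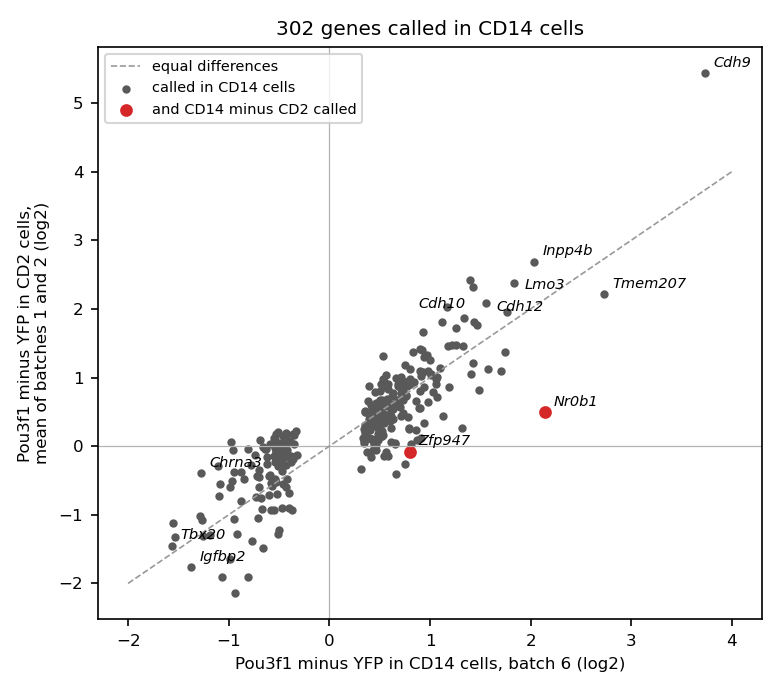
Pou3f1 minus YFP in CD14 cells (horizontal axis, log2) against the mean difference in CD2 cells of batches 1 and 2 (vertical axis, log2), with 1 point for each of the 302 genes that changed in CD14 cells. The dashed line marks equal differences. Red points, Nr0b1 and Zfp947, also passed the test of the difference between the effects, and Cdh9 lies at the top right.

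The other CD14 lines of batch 6 that carry Pou3f1 show at which levels these genes stood when a second factor or a tag was present. Their levels are given without a test, as all were set against the same YFP arrays. Tmem207 read 9.72 and 9.85 in Flag;Pou3f1, 10.04 and 10.01 in Pou3f1;Hoxa5 and 10.33 and 10.25 in Pou3f1;Hoxc6, but 6.48 and 6.76 in Pou3f1;Lhx3 (DN), near the YFP values. Cdh12 was likewise at 9.05 and 8.99 in Pou3f1;Lhx3 (DN), below the YFP arrays of batch 6, while it lay between 11.31 and 11.82 in the other 3 lines. In Pou3f1;Lhx3 (DN), Pcdh11x was at 8.80 and 8.72, within the range of the 4 YFP arrays, and Il1rap was at 7.60 and 8.02, below all of them. Inpp4b, by contrast, read 8.65 and 8.52 there, against 8.51 and 8.50 with Pou3f1 alone, and Vstm2a read 12.44 and 12.62, far above its 10.20 and 9.66 with Pou3f1 alone. Pou3f1 itself read 9.66 and 9.24 in these 2 arrays, above its level with Pou3f1 alone.

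The direct comparison of Flag;Pou3f1 with Pou3f1 shares no YFP array. Pou3f1 itself differed by 0.03 (adjusted p = 0.915), Cdh9 by -0.91 (adjusted p = 0.249), Tmem207 by 0.21 (adjusted p = 0.171) and Cdh10 by 0.05 (adjusted p = 0.884). Nr0b1 was lower in the tagged line by 0.70 (adjusted p = 0.0129), as were Foxp1 by 0.44 (adjusted p = 0.0102) and Gabra2 by 0.84 (adjusted p = 0.00413). In all, 2351 genes passed (11.8%), 1262 higher and 1089 lower, or 53.7% higher. Median centring of the arrays turned this balance to 30.9% higher, and the fit of these 4 arrays alone had 0 that passed by limma, with 2847 higher and 1927 lower at an unadjusted p under 0.05. Malat1, a nuclear noncoding RNA, read 12.21 and 12.25 in the Flag;Pou3f1 arrays and 10.67 and 10.36 in the Pou3f1 arrays, beside 10.57 and 10.91 in YFP of batch 6. Its part in the difference between these lines was not tested.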

How the data were processed

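Total RNA was measured on 68 Affymetrix arrays. Per the submitters' processing notes, the authors made the deposited log2 values by RMA with oligo, with versions not given in the sources used here. RMA normalizes quantiles, which can hide a shift of most genes. No scanner intensities were analysed here, so the number of arrays alone limits the precision stated. Of 35556 probe sets, 21789 had exactly 1 gene symbol in the array annotation, 1621 several and 12146 none. For each of 19938 genes, its brightest probe set on average was kept.

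Limma 3.58.1 in R 4.3.3 (lmFit, eBayes) was fitted to 12 CD14 arrays of batch 6 in 6 groups (6 residual and 3.74 prior degrees of freedom), with two-sided tests and Benjamini-Hochberg adjustment over all genes. The contrast between CD14 and CD2 cells used all 68 arrays with 1 term per line, reporter and batch. Both fits were tested on simulated data. The first recovered 54% of log2 changes of 0.5 and 98% of changes of 1. The contrast between CD14 and CD2 cells recovered 20% and 68% of these. A difference between the effects that did not pass is therefore no evidence of equal effects.

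Genes named are Pou3f1, the 15 largest rises and falls among changed genes whose groups did not overlap, up to 4 changed members of each of 37 lists, and 23 genes of interest. Grik2, Grin2a, Grin2b, Grin2c, Gabrg3, Htr2a, Nkx6-2, Eya1, Zeb2, Chrna5, Cldn1, Gmnc, Sst, Slc18a3, Acta2, Cdh5, Pecam1, Malat1, Igfbp1, Igfbp4, Igfbp6, Igfbp7 and the neighbours of changed genes are named outside this rule, after their values were seen. Predicted, RIKEN and olfactory receptor genes enter the counts without being named. Members and lists were chosen with earlier results of these data known. Promoters were matched by symbol. For the named changed genes those on chromosome 18, such as that of Tshz1, were left out, which gave promoters for 55 of the 65.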

Additional observations from a re-analysis of the deposited data

Results flagged for a closer look

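For 6 genes the effect of Pou3f1 in CD14 cells differed from that in CD2 cells by limma's test of the difference (log2, CD14 minus CD2). It was higher in CD14 cells by 1.65 for Nr0b1 and by 1.01 for Pou3f4. It was higher by 0.79 for Prox1, which was at -0.34 in CD14 cells and at -1.26 and -0.99 in CD2 cells, and by 0.71 for Wdr43, at 0.25 against -0.65 and -0.26. For Zfp947 it was higher by 0.88, at 0.81 against -0.09 and -0.06. It was lower by -0.89 for Elfn2, at 0.29 against 1.01 and 1.36. Adjusted p ran from 0.00512 to 0.0261. With 1 of the 4 CD14 arrays left out, Pou3f4 still passed without YFP replicate 1 and Elfn2 without YFP replicate 2, and no other of these 6 genes passed.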

How the results depend on the processing

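In the comparison of Pou3f1 with YFP (191 higher and 111 lower), a fit of the 4 arrays alone gave 39 and 13, a spread from all same-batch replicates of 68 arrays 116 and 53, and 68 arrays with batch terms 49 and 12. Leaving out 1 array gave 49 to 81 higher and 12 to 30 lower. An intensity trend with robust estimation gave 309 and 177, and leaving out dim genes gave 202 lower. There were 3 alternatives chosen after seeing the data. A spread from 3 groups without raised Malat1 gave 72 and 48, and the E3 array as a control gave 127 higher. The YFP arrays of both batches pooled as controls gave 251 and 138. The labels do not say that replicate numbers pair the samples. Deviations of the Pou3f1 and YFP arrays with the same number correlated at -0.07, those of Pou3f1 and Flag;Pou3f1 at 0.16 and those of YFP and Pou3f1;Lhx3 (DN) at 0.16, and a replicate block gave 106 and 48 here and 545 and 606 for the comparison of Flag;Pou3f1 with Pou3f1. That comparison gave 0 and 0 with its 4 arrays alone, 469 higher with median centring, and 131 to 776 higher and 151 to 804 lower with 1 array left out. The contrast of CD14 with CD2 cells (5 higher, 1 lower) gave 9 and 2 with batches 1, 2 and 6 alone, 2 and 0 with batch terms, 2 lower with median centring, and 0 to 1 in each direction with 1 array left out. The cause of these changes was not tested, and some of the fits also held fewer arrays. No changed gene followed by name changed sign, but Cdh18, Alcam and Isl1, which did not pass, did, and the balance of Flag;Pou3f1 against Pou3f1 turned to more genes lower under median centring and under the block. Of 77 changed genes followed by name, 30 passed without any 1 array, 29 with batch terms over 68 arrays and 14 under each alternative tried.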
